A study of Mus musculus with 4 samples.

Results

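Between the embryonic days E12.5 and E13.5 the mouse gonad turns from a tissue that has just become a testis or an ovary into one whose germ cells and hormone-making cells begin to work, and the comparison described here set 1 library of each day side by side. The members were all genes with 10 or more counts in at least 1 of the 2 libraries. This rule kept 19419 of the 40999 annotated features, and the 2 libraries were 2 of the 4 in the series. The whole series was made from gonads of wild-type C57BL/6J embryos, with XX and XY gonads mixed in equal numbers at each day. No allele, agent or other treatment was involved, and no group carried a transgene. The E12.5 and E13.5 gonads had been freed of the mesonephros, the adjoining embryonic kidney, whereas the E11.5 sample was the whole genital ridge. RNA of all lengths was put into a stranded library after removal of ribosomal RNA (rRNA). The gonads of several embryos were pooled into each library, so every value is an average over both sexes and over all cell types of the gonad.

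In the XY gonad, Sertoli cells enclose the germ cells in cords and hold them in mitotic arrest, and fetal Leydig cells outside the cords begin to make androgens. In the XX gonad, germ cells enter meiosis at about this age, when retinoic acid and bone morphogenetic proteins switch on Stra8, and the cells around them take on a pregranulosa identity. Blood cells of the yolk sac are over the same period replaced in the circulation by red cells from the fetal liver, which carry adult instead of embryonic globins.

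The E12.5 library held 25593453 counts and the E13.5 library 31752562. The 18S rRNA gene took 1.31% of the E12.5 counts and 1.03% of the E13.5 counts, against 9.06% at E11.5 and 40.7% at E14.5. Fold changes were E13.5 over E12.5 after TMM scaling. With 1 library a day there is no replicate, so no test between the days was possible. The intervals given are exact 95% intervals of the count ratio and cover counting error only. A gene is said to have risen or fallen where its level differed at least 2-fold and the whole interval lay past 1.5-fold. A gene at 0 was set to 3 counts for its fold. The interval of such a gene was taken from the count of 0 and has a near end only. In such bulk samples, a change in the number of cells of a type and a change in the RNA per cell cannot be told apart.

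By this rule 263 genes rose, which was 1.35% of the 19419 kept, and 144 genes fell, which was 0.742%. The 407 genes together were 2.10% of those kept, and 64.6% of them rose. With the deposited TPM in place of scaled counts, where no interval could be applied, 975 genes were 2-fold higher and 310 lower, so that 75.9% were higher. Of the 407 genes, 344 were protein-coding. Most genes differed little, with 81.7% of them between −0.5 and 0.5 on the log2 scale, quartiles of −0.15 and 0.18, and a median of 0.00. Among 5565 genes with 1000 or more counts in both libraries the SD of the log2 fold change was 0.19. A change of 4-fold or more was seen in 82 genes that rose and 52 that fell. Where the higher library had 100 counts or more, 149 rose and 37 fell.

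**Figure D1:**
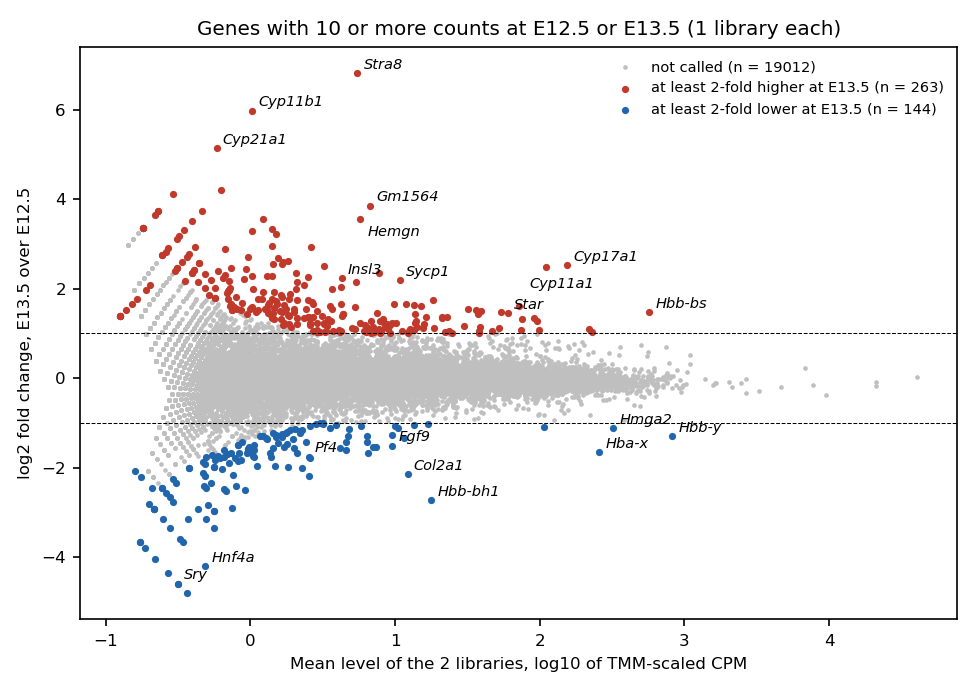
The log2 fold change of E13.5 over E12.5 (vertical axis) is plotted against the log10 of the mean TMM-scaled CPM of the 2 libraries (horizontal axis) for 19419 genes, 1 point a gene, with dashed lines at 2-fold. Red marks the 263 genes that rose, with Stra8 at the top at 6.82, and blue the 144 that fell, among them the embryonic globins Hbb-bh1, Hba-x and Hbb-y.

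Of the 15 largest rises among genes with 100 or more counts, several belonged to meiosis, steroid synthesis and red cells. Stra8, the retinoic acid-responsive gate to meiosis, went from 3 to 430 counts. Its ratio was 113-fold (interval 38.4 to 550), the largest log2 fold change of any gene kept. Gm1564, the older name of Meioc, whose product keeps meiotic germ cells from falling back into mitosis, had 27 and 496 counts, a 14.49-fold rise (9.84 to 22.2). Hemgn, an erythroid nuclear protein, had 28 and 415 counts (11.7-fold, 7.97 to 17.8). The erythroid transcription factor Klf1 was also among the 15, at a log2 fold change of 2.35, as were the steroidogenic enzymes Cyp17a1 at 2.53 and Cyp11a1 at 2.48.

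A further 8 of the 15 were of mixed kinds. They were the gel-forming mucin Muc6 (8 and 102 counts), the pancreatic colipase Clps (9 and 107), Nxpe2 (19 and 184), LOC102634542 (13 and 106), the small leucine-rich proteoglycan Aspn (16 and 124), the homeobox gene Dlx3 (15 and 115), the synaptic adhesion gene Nlgn1 (15 and 112) and the proteoglycan Bcan (30 and 218). Their log2 fold changes ran from 2.52 for Bcan to 3.33 for Muc6.

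The 10 largest falls among genes with 100 or more counts were smaller than the largest rises. Hbb-bh1, an embryonic beta-type globin, fell by 2.72 on the log2 scale, from 968 to 186 counts. Umodl1 fell by 2.19 (130 and 36 counts) and the cartilage collagen Col2a1 by 2.14 (624 and 179). The platelet chemokines Ppbp and Pf4 fell by 2.01 and 1.75. Gfra1, the co-receptor for GDNF, had 125 and 46 counts and fell by 1.78. The other 4 were the steroid dehydrogenase Hsd3b6, the fucosyltransferase Fut9, the embryonic globin Hba-x and the protease Prss12, with falls between 1.61 and 1.68.

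**Figure D2:**
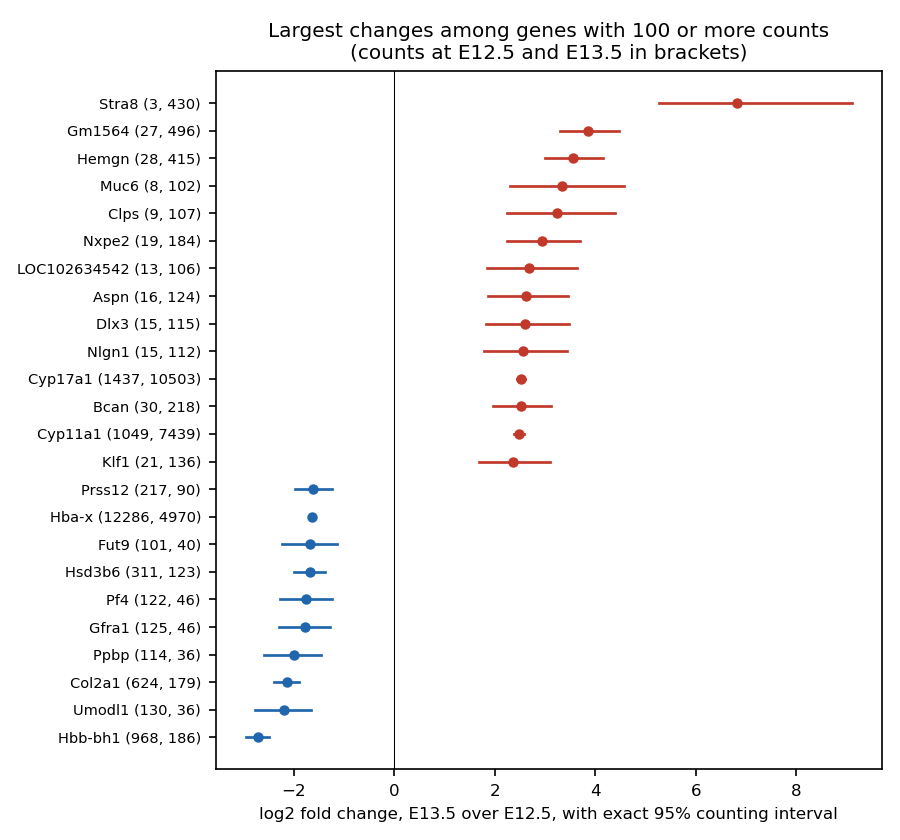
Points give the log2 fold change of E13.5 over E12.5 for 14 of the 15 largest rises (red) and the 10 largest falls (blue) among genes that changed and had 100 or more counts in the higher library, and bars give the exact 95% counting interval. Stra8 has the widest interval because it rests on 3 counts at E12.5, while the interval of Cyp17a1, with 1437 and 10503 counts, is hardly wider than its point.

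Meiotic genes rose and none fell. Of 42 genes on 3 lists, which cover the entry into meiosis and meiotic cohesin, the synaptonemal complex and axis, and recombination, 14 rose, and 38 of the 42 lay above 0 with a median log2 fold change of 0.78 beside 0.00 for all genes. The promoters of 6 of these genes are printed here because the factor pair STRA8 and MEIOSIN is known to act at the promoters of meiotic genes, and because the sequences differ in the motifs they hold. They run from 250 bases before to 50 bases after the RefSeq start in GRCm38.p6, 5′ to 3′ on the strand of the gene. Capitals mark CNCCTCAG, the motif named for STRA8 and MEIOSIN, and CACGTG, an E-box, each on either strand.
Stra8, chr6:34920698-34920997 (+): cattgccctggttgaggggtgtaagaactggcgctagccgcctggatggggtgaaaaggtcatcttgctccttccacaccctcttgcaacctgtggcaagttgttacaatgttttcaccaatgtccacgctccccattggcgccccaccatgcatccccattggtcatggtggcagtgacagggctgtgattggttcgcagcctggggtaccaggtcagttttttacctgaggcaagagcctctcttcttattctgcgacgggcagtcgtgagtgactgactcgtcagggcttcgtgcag
Meioc, chr11:102665335-102665634 (+): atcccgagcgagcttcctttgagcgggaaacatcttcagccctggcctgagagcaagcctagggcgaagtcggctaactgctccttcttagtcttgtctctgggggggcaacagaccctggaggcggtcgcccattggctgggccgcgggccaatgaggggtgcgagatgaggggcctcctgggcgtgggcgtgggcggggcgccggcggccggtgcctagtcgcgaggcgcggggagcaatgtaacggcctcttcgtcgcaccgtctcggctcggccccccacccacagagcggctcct
Sycp1, chr3:102936051-102936350 (−): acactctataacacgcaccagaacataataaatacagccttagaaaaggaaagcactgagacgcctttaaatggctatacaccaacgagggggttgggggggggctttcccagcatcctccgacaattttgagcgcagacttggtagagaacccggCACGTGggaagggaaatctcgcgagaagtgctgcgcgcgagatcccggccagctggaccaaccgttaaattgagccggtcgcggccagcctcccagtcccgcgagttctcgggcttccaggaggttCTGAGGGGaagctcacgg
Sycp3, chr10:88459337-88459636 (+): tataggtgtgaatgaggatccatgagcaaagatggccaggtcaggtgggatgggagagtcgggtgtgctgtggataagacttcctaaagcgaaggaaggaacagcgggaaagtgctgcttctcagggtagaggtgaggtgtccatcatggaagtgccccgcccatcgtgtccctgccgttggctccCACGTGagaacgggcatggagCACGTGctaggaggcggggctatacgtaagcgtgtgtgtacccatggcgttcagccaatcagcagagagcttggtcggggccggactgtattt
Tex12, chr9:50561219-50561518 (−): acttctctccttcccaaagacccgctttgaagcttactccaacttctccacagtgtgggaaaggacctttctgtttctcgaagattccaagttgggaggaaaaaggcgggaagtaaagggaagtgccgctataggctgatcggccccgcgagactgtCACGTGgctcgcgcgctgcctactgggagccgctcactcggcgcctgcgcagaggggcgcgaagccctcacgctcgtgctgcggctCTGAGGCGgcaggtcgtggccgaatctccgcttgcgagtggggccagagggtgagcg
Hfm1, chr5:106925841-106926140 (−): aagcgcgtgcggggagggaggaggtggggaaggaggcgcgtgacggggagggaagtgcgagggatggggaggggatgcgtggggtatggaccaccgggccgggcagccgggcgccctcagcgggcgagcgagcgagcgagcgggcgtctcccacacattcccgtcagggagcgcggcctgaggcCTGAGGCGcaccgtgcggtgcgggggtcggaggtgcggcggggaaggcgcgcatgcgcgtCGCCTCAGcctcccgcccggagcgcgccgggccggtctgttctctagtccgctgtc

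The Stra8 and Meioc windows, which belong to the meiotic genes with the largest rises, held neither motif. The Meioc feature as counted begins at chr11:102664966, and the Hfm1 feature, on the minus strand, at chr5:106926568. Both positions lie before the window, so each whole window is within the counted feature. The bases before those positions were not searched. The Sycp1 window held CACGTG at 94 bases and the Tex12 window at 93 bases before the RefSeq start, and both also held CNCCTCAG. The Sycp1 feature as counted begins at chr3:102936305, inside its window, so its CACGTG lies within the counted feature. Sycp3 had a pair of E-boxes, and Hfm1 had CNCCTCAG at a pair of positions. A promoter was found for 37 of the 42 meiotic genes, and 9 of the 37 (24.3%) held CNCCTCAG, as did 2465 of all 27025 promoters (9.12%). The E-box was in 9 of the 37 as well, against 8.09% of all promoters. Among the 12 promoters of the meiotic genes that rose, 4 held CNCCTCAG and 4 held CACGTG. These matches describe letters in a window and say nothing of binding.

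Of the 9 genes of meiotic entry and cohesin, 3 rose. Beside Stra8 and Meioc (Gm1564) this was Smc1b, the meiosis-specific SMC1 subunit of cohesin, with 645 and 2304 counts and a log2 fold change of 1.49 (1.37 to 1.62). Rec8, the meiotic kleisin subunit, had 456 and 1074 counts (0.89), and Gm4969, the older name of the STRA8 partner Meiosin, had 192 and 394 (0.69). Neither passed the rule. Stag3, with 1393 and 2581 counts, and the RNA helicase Ythdc2, with 1054 and 1515, lay at 0.55 and 0.18. The cohesin protector Sgol2 was alone below 0 among the 9, at −0.23.

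All 12 genes of the synaptonemal complex and axis lay above 0, and 5 of them rose. Sycp1, the transverse filament that joins the homologs, had 121 and 698 counts and a log2 fold change of 2.19 (1.91 to 2.48). The axis proteins Sycp2 (74 and 245 counts) and Sycp3 (66 and 202) rose by 1.38 and 1.27. The central element gene Tex12 rose by 1.58, from 23 to 87 counts. The fifth gene, 4930447C04Rik, also known as Six6os1, rose by 1.02 (458 and 1180 counts). Hormad1, Hormad2, Syce1, Tex11 and Tex15 lay between 0.64 and 0.98 without passing.

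Of 21 genes of recombination and telomere attachment, 6 rose. The strand exchange recombinase Dmc1 had 148 and 383 counts (1.03) and Spo11, which makes the double-strand breaks, had 37 and 119 (1.34). The helicase gene Hfm1 rose by 1.01 (193 and 492 counts). Ankrd31 rose by 2.39 from 6 to 40 counts, and Ccdc79, the older name of the telomere gene Terb1, by 1.76 from 10 to 43. Meiob was at 0 at E12.5 and at 13 counts at E13.5, which is 3.42-fold higher with the 0 set to 3 counts (interval from 2.40-fold). Mlh3 and Trip13, which are used outside meiosis too, lay at −0.06 and −0.31, and Psmc3ip lay at 0.01.

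Other germ cell genes moved less. Of 13 genes on a germ cell list made mainly of RNA-binding proteins 3 rose and none fell, with a median of 0.49. Boll, a member of the DAZ family, had 27 and 96 counts (1.49). Tex101, on the list though not an RNA-binding protein, had 16 and 59 (1.54). Nanos2, which acts in XY germ cells, was at 0 and then at 12 counts, 3.15-fold higher with the 0 set to 3 counts (interval from 2.19-fold). Dazl, which licenses germ cells for sexual differentiation, had 4555 and 8230 counts (0.51), and Ddx4 had 1726 and 2960 (0.44). None of 14 piRNA pathway genes changed by the rule, but 13 of the 14 lay above 0, with a median of 0.36. Of 11 germline genes on the X chromosome Taf7l (24 and 135 counts, 2.15) and Tex16 (39 and 144, 1.54) rose.

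None of the 19 pluripotency and primordial germ cell genes passed, and 15 of them lay below 0 with a median of −0.20. Tdgf1 was the lowest, with 54 and 30 counts (−1.19). The orphan receptor gene Esrrb lay at −0.65, Dppa5a at −0.59, Nanog at −0.54 and Utf1 at −0.54. Pou5f1, with 1058 and 1169 counts, lay at −0.20. Of the 6 genes of Nodal signalling in XY germ cells, Nodal itself was at −0.58 and Lefty2 at −0.70, while Lefty1 was at 0.29. Nanos2 was the 1 gene of that list that rose. None of 5 oocyte factors, which include Sohlh1, Sohlh2 and Taf4b, changed, and none of 8 genes for DNA methylation and demethylation did.

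The levels of sex-linked genes depend on the balance of XX and XY tissue in the 2 pools, and also on the RNA per cell. Leaving out Sry, all 7 Y-linked genes lay below 0, between −0.72 and −0.03, with a median of −0.38. Xist, transcribed from the inactive X chromosome of XX cells, had 17879 and 36692 counts (0.69). It was the highest of 4 X inactivation genes, which ran down to −0.05 with a median of 0.00. The meiotic and pregranulosa genes had medians of 0.78 and 0.27. Genes of the fetal Leydig cell, a cell of the XY gonad, also lay mostly above 0, with a median of 1.34. Sertoli cell genes, also of the XY gonad, had a median of −0.08, or 0.06 with TPM, and 16 of 27 lay below 0. The part of the balance of XX and XY tissue in these results was not tested. With total counts or TPM, 1 of the Y-linked genes lay above 0.

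Of 15 genes of androgen synthesis and the fetal Leydig cell, 8 rose and 1 fell, with a median of 1.34. Star, which carries cholesterol into mitochondria, had 1003 and 3510 counts (1.46). Cyp11a1, which cleaves the cholesterol side chain, had 1049 and 7439 counts, a 5.59-fold rise (5.24 to 5.97). Cyp17a1, which turns progestins toward androgens, had 1437 and 10503 counts, a 5.76-fold rise (5.45 to 6.10). The dehydrogenase Hsd3b1 rose by 1.34 on the log2 scale, from 1616 to 5171 counts. Between these 4 steps of the pathway the log2 rise thus ran from 1.34 to 2.53, and the counting intervals of Star and Hsd3b1 did not overlap those of Cyp11a1 and Cyp17a1.

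The Leydig cell hormone Insl3, which guides testis descent, had 47 and 280 counts (2.23), and the luteinizing hormone receptor Lhcgr had 204 and 807 (1.64). Renin (Ren1) rose by 1.61 (1112 and 4318 counts) and the prolactin receptor Prlr by 1.55. Hsd3b6, a second 3-beta-hydroxysteroid dehydrogenase, went the other way, from 311 to 123 counts, a fall of 1.68 (interval −1.99 to −1.38). The Hsd3b genes are close paralogs, so the split of reads between them is uncertain. The redox partners Fdx1, Fdxr and Por lay at 0.86, 0.29 and 0.29, and the stromal genes Thbs2 and Vcam1 at 0.995 and −0.57, without passing.

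Cyp11b1 and Cyp21a1, the adrenal-type 11-beta- and 21-hydroxylases, each stood at 1 count on the earlier day. On the later day they had 80 and 45 counts, a log2 ratio of 5.98 (interval 3.46 to 11.30) for Cyp11b1 and of 5.15 (2.60 to 10.48) for Cyp21a1. The other adrenal-type genes, the ACTH receptor Mc2r at 0.44, its partner Mrap at 1.22 and Akr1b7 at 0.81, did not pass. Cholesterol is the substrate of these enzymes. All 21 genes that make it or take it up lay above 0, with a median of 0.67, but 2 passed the rule, Lss (752 and 2120 counts, 1.15) and Fdps (955 and 2513, 1.05). The synthase gene Hmgcs1 had 4571 and 8958 counts (0.63) and the scavenger receptor Scarb1 had 2368 and 5265 (0.81).

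**Figure D3:**
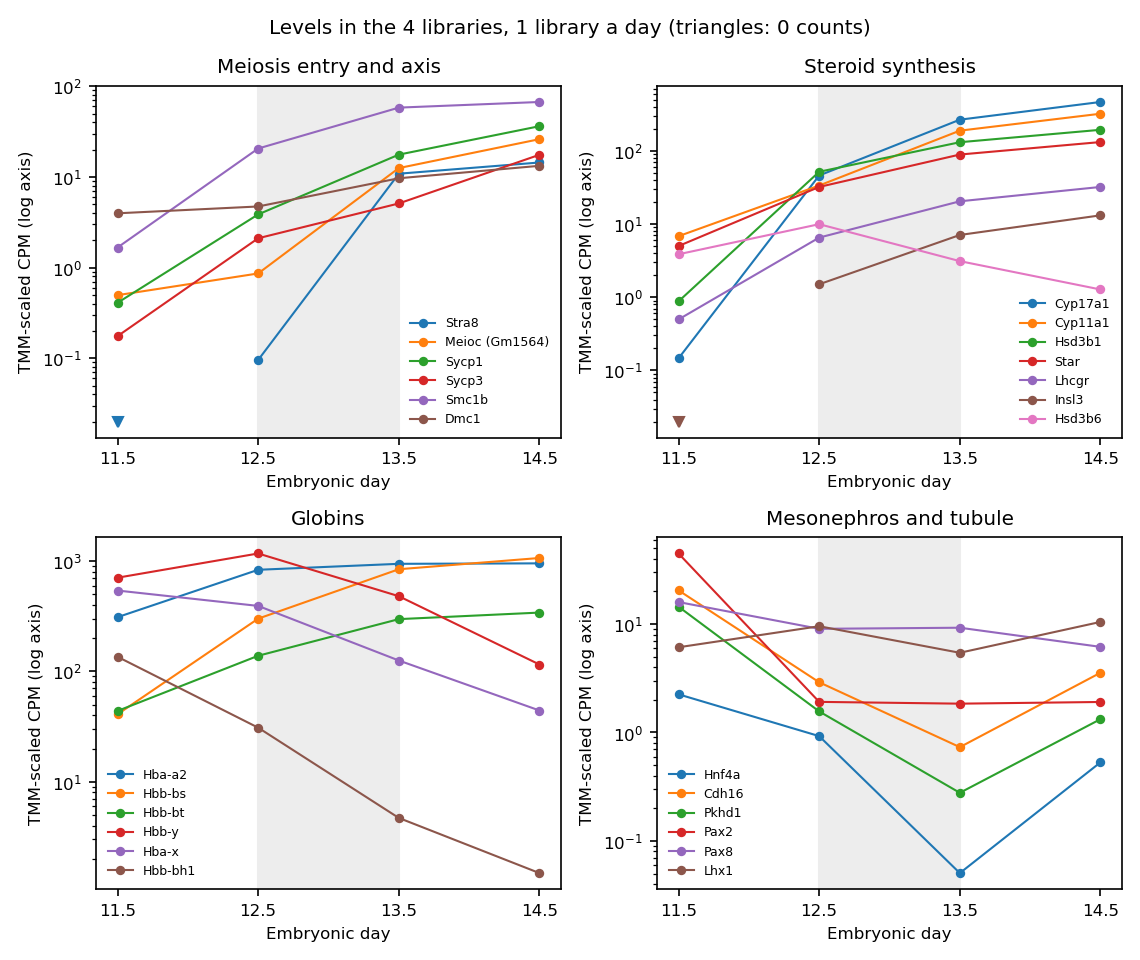
TMM-scaled CPM (log axis) is plotted against embryonic day for selected genes of 4 groups, 1 library and 1 point a day, with the E12.5 to E13.5 interval shaded and triangles for 0 counts. Stra8 goes from 0.0957 to 10.9 CPM and Cyp17a1 from 45.9 to 265 CPM over the shaded interval, while the adult globin Hbb-bs rises and the embryonic Hbb-y falls.

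The 4-day series places these steps. Stra8 was at 0, 0.0957, 10.9 and 14.4 TMM-scaled CPM on the 4 days in order, so most of its rise fell between E12.5 and E13.5. Cyp17a1 was at 0.146, 45.9, 265 and 463 CPM, higher at each day than at the one before. Meioc (Gm1564) was at 0.496, 0.862, 12.52 and 26.1 CPM. Sycp3 was at 0.175, 2.11, 5.10 and 17.6 CPM, and it was lower at E13.5 than at E14.5. These levels rest on 4 libraries scaled together, of which E11.5 held mesonephros and E11.5 and E14.5 were rich in rRNA.

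Sertoli cell genes stayed close to level as a group. None of 27 rose and 2 fell, with a median of −0.08 that turned to 0.06 with TPM. Sry, the Y-linked trigger of testis formation, went from 19 counts to 1, a log2 ratio of −4.59 (interval −9.97 to −1.94). Fgf9, a growth factor that maintains testis fate, had 443 and 198 counts and fell by 1.504 (interval −1.75 to −1.26). Amh, the hormone that removes the Müllerian duct, had 8900 and 10299 counts (−0.13). Sox9, the target of SRY, had 4282 and 3587 (−0.60), Dhh, the Hedgehog ligand of Sertoli cells, 1707 and 1654 (−0.39) and Cyp26b1, which breaks down retinoic acid, 4514 and 4398 (−0.38). The other direction was taken by Hsd17b1 (80 and 198 counts, 0.96), Defb19 (0.53) and Sox8 (0.42), none of which passed.

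None of 16 pregranulosa and pro-ovarian genes passed, but 14 of them lay above 0 and the median was 0.27. Foxl2, the ovarian forkhead factor, had 493 and 1092 counts (0.80), and its antisense neighbour Foxl2os rose from 100 to 275 counts (1.12). Whether the counting used strand is not given in the sources used here, so reads of this pair cannot be told apart. Gng13 lay at 0.85, Irx5 at 0.79, Irx3 at 0.56, Wnt4 at 0.33 and Rspo1 at 0.22. Kitl, the ligand of the KIT receptor, had 12019 and 15754 counts and lay at 0.05. The orphan receptor Nr0b1 was lowest, at −0.55.

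No factor of the early gonad passed. The 12 genes of that list, among them Gata4, Wt1, Nr5a1, Lhx9 and Emx2, ran from −0.22 to 0.54 with a median of −0.12, or 0.02 with TPM. Nr5a1, the regulator of steroidogenic genes, had 4962 and 6595 counts (0.07). None of 10 Hedgehog genes and none of 14 retinoic acid genes passed. Gli1, a readout of Hedgehog signalling, lay at 0.04, and the retinal dehydrogenase Aldh1a1 at 0.59. Of 18 activin, inhibin and BMP genes Inhba, the activin A subunit, was the 1 that rose, from 231 to 796 counts (1.44). Inha had 1436 and 3112 counts (0.77) and Inhbb 3521 and 3297 (−0.44).

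**Figure D4:**
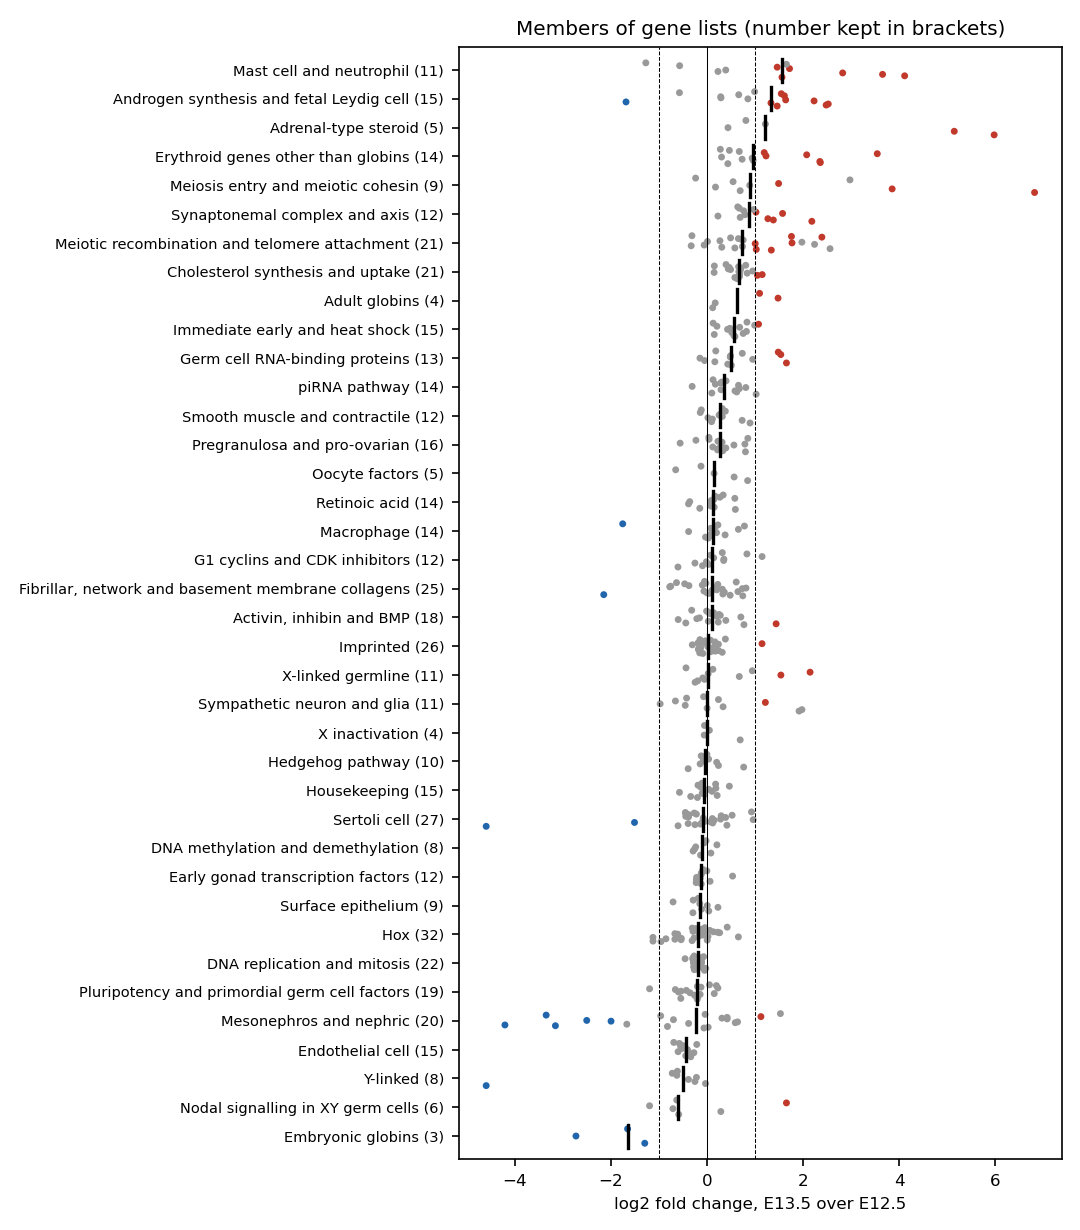
Each point is a kept gene of a list at its log2 fold change of E13.5 over E12.5 (horizontal axis), red where it rose, blue where it fell and grey where it did not pass, with a black bar at the list median and dashed lines at 2-fold. The medians run from −1.65 for the 3 embryonic globins to 1.56 for 11 mast cell and neutrophil genes, and the steroid, erythroid and meiotic lists lie at the upper end.

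Blood genes changed in kind. All 3 embryonic globins fell. Hbb-y had 36693 and 19013 counts (−1.29), Hba-x had 12286 and 4970 (−1.65) and Hbb-bh1 had 968 and 186 (−2.72). Of the 4 adult globins, Hbb-bs had 9419 and 33377 counts (1.483) and Hbb-bt 4341 and 11785 (1.10), and both rose. The alpha globins Hba-a1 and Hba-a2 lay at 0.12 and 0.17. Each adult pair is near-identical in sequence, so reads may be split between its copies. On the scale of the 4 libraries the summed CPM of the embryonic globins went from 1594 to 610, and that of the adult globins from 1991 to 2869.

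All 14 erythroid genes other than globins lay above 0, and 6 rose. Beside Hemgn and Klf1 these included Rhag (28 and 150 counts, 2.08) and Ermap (176 and 511, 1.195). The heme synthesis gene Alas2 had 588 and 1010 counts (0.44) and the band 3 anion exchanger Slc4a1 1256 and 2650 (0.73). Of 11 mast cell and neutrophil genes 6 rose, all from few counts. The mast cell proteases Cma1 (1 and 22 counts), Tpsb2 (1 and 16) and Cpa3 (16 and 60) rose, as did the neutrophil genes Elane (2 and 18), S100a8 (22 and 92) and S100a9 (22 and 77). Mpo lay at 0.23 and Ngp at −0.56.

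All 15 endothelial genes lay below 0, between −0.69 and −0.21, with a median of −0.44, and none passed. Cdh5, the endothelial cadherin, had 3846 and 3597 counts (−0.44) and Pecam1 had 2199 and 2212 (−0.33). Plvap was lowest, at −0.69. Of 14 macrophage genes, 13 did not pass and lay between −0.38 and 0.78, with Csf1r at 0.03. The exception, Pf4, is also a platelet gene. Of 11 genes of sympathetic neurons and glia Tubb3 was the 1 that rose (61 and 180 counts, 1.22). No gene of smooth muscle (12) or of the surface epithelium (9) passed.

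Nephric genes fell in part, although both gonad samples had been freed of the mesonephros. Of 20 genes 5 fell and 1 rose. The factors Hnf4a (29 and 2 counts) and Gcm1 (32 and 4) fell 18.4-fold (4.65 to 159) and 10.1-fold (3.60 to 39.5), and the epithelial genes Cdh16 (91 and 29) and Pkhd1 (49 and 11) by 1.99 and 2.50 on the log2 scale. Calb1 rose, from 125 to 346 counts. The nephric master regulators Pax2 (60 and 73 counts, −0.06) and Pax8 (283 and 366, 0.03) did not differ by this measure. Hnf4a was at 2.25 CPM at E11.5, where the mesonephros was included, at 0.925 at E12.5, at 0.0505 at E13.5 and at 0.531 at E14.5. Gcm1 had another course, with 0.146, 1.02, 0.101 and 0 CPM on the same days, and was highest at E12.5. The summed CPM of the 20 genes was 397, 106, 102 and 116 in the same order. The part of carried-over tubule tissue in the genes that fell was not tested, and leaving out this list and a list of kidney tubule genes left 262 genes that rose and 131 that fell.

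Genes of DNA replication and mitosis all lay slightly below 0. None of the 22 passed, and they ran from −0.45 for Aurkb to −0.02 for Ccnb2 with a median of −0.19. With TPM, 8 of the 22 lay above 0 and the median was −0.05. Mki67 had 16048 and 19681 counts (−0.05). Among 12 G1 cyclins and CDK inhibitors, Cdkn2a (27 and 76 counts) lay at 1.15, Cdkn2c at 0.83 and Ccnd1 at −0.60, and none passed. The 32 Hox genes had a median of −0.18 and none passed.

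All 15 immediate early and heat shock genes lay above 0, with a median of 0.56. Hspa1b rose (1981 and 5299 counts, 1.08), while its near-identical copy Hspa1a, with 1987 and 5025 counts, lay at 0.996 and did not pass. Fos had 14013 and 26672 counts (0.59), Egr1 28167 and 51165 (0.52) and Junb 4027 and 8631 (0.76). These genes respond to the handling of tissue as well as to signals in it, and their part in the other results was not tested.

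Among 25 fibrillar, network and basement membrane collagens Col2a1 was the 1 that passed. Col25a1, a collagen gene outside that list, rose from 232 to 897 counts (1.61). Col1a1, with 11639 and 24798 counts, lay at 0.75, Col6a2 at 0.82 and Col6a1 at 0.74. The basement membrane pair Col4a1 and Col4a2, with 24301 and 14595 counts at E12.5, lay at 0.04 and 0.00. Col18a1 had 18668 and 15292 counts (−0.63). Of 26 genes on a list of imprinted genes Phlda2 was the 1 that rose (165 and 464 counts, 1.15). The abundant H19, Igf2 and Peg3 lay at −0.08, −0.15 and −0.12. The list did not hold every imprinted gene, and Slc22a18 (7 and 49 counts, 2.46) and Ascl2 (16 and 61, 1.59), which were not on it, also rose. The 15 housekeeping genes had a median of −0.06, or 0.08 with TPM, and none passed.

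Nuclear tRNAs were lower at E13.5 as a class. Of 262 nuclear tRNA genes, 248 lay below 0 and the median was −0.62. Of the 262, 11 fell (4.2%) and none rose, beside 0.742% and 1.35% of all genes kept. Valine tRNA genes n-Tv12 (573 and 353 counts) and n-Tv19 (423 and 224) fell by 1.04 and 1.26, and n-Te20 (452 and 264 counts) by 1.12. Nuclear tRNAs took 0.281% of the E12.5 total and 0.183% of the E13.5 total. The 122 snoRNAs had a median of −0.17, the 15 snRNAs of −0.26, the 54 miRNAs of −0.47 and the 69 replication-dependent histone genes of −0.28. On the TPM scale every gene lies 0.14 higher, which brings the snoRNA median close to 0. The 529 features under 200 bases had a median of −0.45, and the 9405 features of 3000 bases or more a median of 0.02. The 529 features overlap with the short RNA classes above, nuclear tRNAs among them, and are not a separate set. Many tRNA genes are identical copies, so that single members cannot be counted apart with certainty. A part of fragment length in this shift was not tested.

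**Figure D5:**
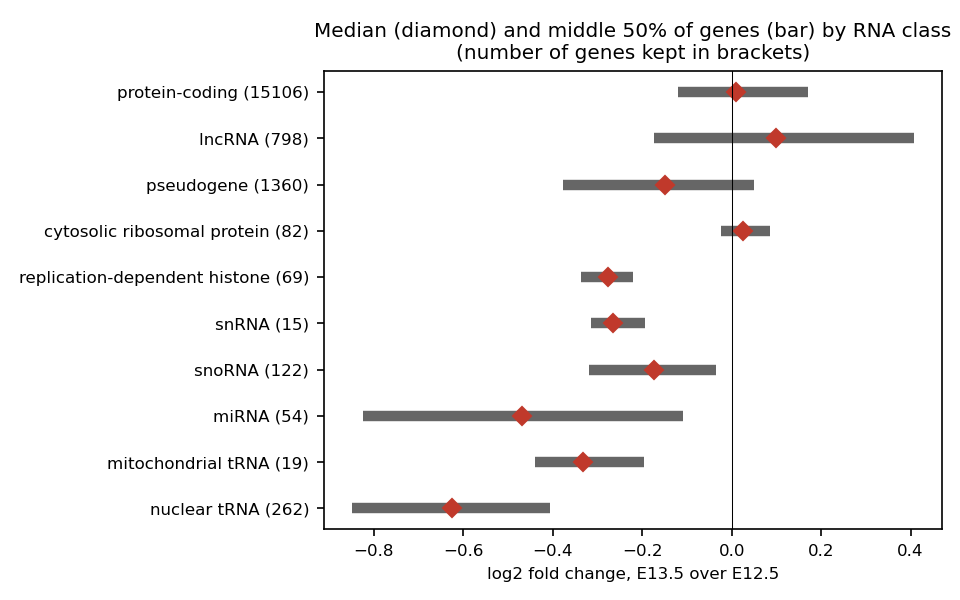
Diamonds give the median and bars the middle 50% of the log2 fold change of E13.5 over E12.5 (horizontal axis) for the kept genes of each RNA class. Nuclear tRNAs have the lowest median at −0.62 and protein-coding genes lie at 0.01.

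The 1 miRNA that fell was mmu-miR-1983, with 26 and 10 counts (−1.72), at chr13:21896930-21896950 on the minus strand. It overlaps the tRNA gene Trnai-uau (28 and 19 counts, −0.90) on the same strand, so its reads cannot be told apart from those of the tRNA. Its mature sequence in RefSeq is shown because no other miRNA passed, with the seed, bases 2 to 8, in capitals.
mmu-miR-1983: cUCACCUGgagcauguuuucu

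The nuclear noncoding RNAs Malat1 and Neat1 did not pass. Malat1 had 198065 and 293790 counts (0.23) and Neat1 had 625 and 1353 (0.77). LOC102639045, whose type was not assigned here, had 4573 and 2711 counts (−1.10). The study gives it as the noncoding RNA Gm15564 and also names it as lower at E13.5. Its count was 53224 in the E11.5 library and 294680 in the E14.5 library. The 18S rRNA gene Rn18s-rs5 (2833632, 334505, 325792 and 12816977 counts from E11.5 to E14.5) was likewise high in the E11.5 and E14.5 libraries and low in the other 2. The part of residual rRNA in its fall was not tested. Of 798 long noncoding RNAs 14 rose (1.75%) and 5 fell (0.627%), beside 1.35% and 0.742% of all genes kept. Among those that rose, 9530091C08Rik went from 256 to 653 counts (1.01) and 5031426D15Rik from 128 to 354 (1.13). 4833422C13Rik went from 32 to 118 (1.54) and Gm6297 from 13 to 48 (1.54). Among those that fell, Gm2373, the older name of Lncenc1, had 196 and 84 counts (−1.56).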

How the data were processed

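Total RNA was extracted with Trizol and made into SEQuoia Complete Stranded libraries, after rRNA depletion, by the authors, 1 library for each of 4 embryonic days. They deposited, for each library, counts per annotated feature on mm10 (TotalReads) with RPKM and TPM derived from them. The aligner's strand setting is not given in the sources used here. The counts were used as deposited, without rounding. The deposited TPM served as an alternative and the RPKM were not used.

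Genes with 10 or more counts in at least 1 of the E12.5 and E13.5 libraries were kept and scaled by TMM (edgeR 4.0.16, R 4.3.3). Ratios were given exact (Clopper-Pearson) 95% intervals, and a gene was called where it differed 2-fold with the whole interval past 1.5-fold. A gene at 0 was set to 3 counts, which is 0.117 CPM at E12.5 and 0.0945 CPM at E13.5 by the unscaled library totals. On the scale of the 4 libraries used for levels, 3 counts at E12.5 are 0.0957 CPM. Levels over 4 days were CPM scaled over all 4 libraries. The study tested with edgeR and does not give the dispersion used. Since 1 library a day gives no spread, edgeR's exact test at preset dispersions was an alternative here. The calculation was tested on simulated data drawn with counting error only, with changes placed in genes of many counts. That setting cannot show how the rule does with spread between libraries or with few counts. DESeq2 1.42.0 gave size factors as an alternative.

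Named genes were the 15 largest rises and 10 largest falls among called genes with 100 or more counts, in each list the called members and up to 6 with the most counts, genes the study names for this comparison, and the 5 called noncoding genes with the most counts. A few genes that this rule names are not reported here. Further members were named beside them, after their values were seen, to show a list's range. So were Foxl2os, Slc22a18, Ascl2, Col25a1, Malat1, Neat1 and the 18S rRNA gene. The lists held 575 symbols, of which 566 were found. The members and lists were chosen with earlier results of these data known. Promoter and miRNA sequences came from RefSeq (GRCm38.p6).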

Additional observations from a re-analysis of the deposited data

How the results depend on the processing

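With 263 genes higher and 144 lower as the values reported, DESeq2 size factors gave the same 263 and 144 genes, and total counts alone gave 293 and 129. Without a filter the counts were 279 and 146, and with 10 or more counts in both libraries 201 and 93. A 4-fold threshold left 82 and 52, and 24 list members, and dropping the interval rule gave 734 and 419. An edgeR exact test with a preset biological coefficient of variation gave 237 and 119 genes at 0.1, 38 and 16 at 0.2, and 1 and 0 at 0.4, so the counts depend on a spread that these libraries cannot measure. The ratio of the deposited TPM, with no interval rule, gave 975 and 310, and moved the median gene by 0.14 on the log2 scale. Requiring 100 or more counts in the higher library, which was chosen after seeing the data, gave 149 and 37. No fold change of a named gene reversed where it had been called. The median of 5 of 44 lists changed sign with TPM or total counts. Leaving out a replicate was not possible with 1 library a day. No paired analysis was possible because each day has 1 library and no replicate numbers are shared. Depth limits genes with few counts, for which a count of 0 allows up to 0.117 CPM of the unscaled library total at E12.5.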

Other observations

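Gene groups chosen after their values were seen showed further differences, given here as values. Of 21 platelet and megakaryocyte genes 12 fell and none rose, with a median log2 fold change of −1.43. The collagen receptor Gp6 had 31 and 5 counts, Gp1ba 45 and 18, Itga2b 206 and 119 (−1.13), Tubb1 93 and 40 (−1.56) and Mmrn1 294 and 138 (−1.43). Nfe2, which erythroid cells also use, lay at 0.39 and Vwf, which endothelial cells also make, at 0.26. Of 24 interferon-inducible genes 7 rose and 1 fell, with a median of 0.55. The class I histocompatibility gene H2-K1 had 60 and 179 counts (1.23), and the others that rose had 66 counts or fewer at E13.5, among them Iigp1 (18 and 66) and Ifi44 (9 and 45). Bst2 lay at −0.20.

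Of 11 genes of small leucine-rich proteoglycans and elastic matrix, 4 rose, namely Aspn, Ogn (59 and 218 counts, 1.54), the elastin gene Eln (771 and 2045, 1.06) and Mgp (127 and 347, 1.11), while Epyc fell (36 and 8 counts, −2.51). Of 18 kidney tubule genes 8 fell and none rose, among them Kif12 (22 and 1 counts), Mep1a (16 and 2) and Slc6a18, which had 13 counts and then 0. Among 12 genes of FGF9 and the ERK response, Fgf9 and Etv4 fell (−1.504 and −1.07), Etv5 lay at −0.69 and Dusp6 at −0.53, and 11 of the 12 lay below 0. Of 12 pancreatic and intestinal genes, Clps, Pla2g1b (20 and 74 counts) and the intestinal homeobox gene Cdx2 (27 and 164) rose, and Ctrb1 (514 and 257) and Pnliprp2 (67 and 29) fell, so that digestive genes moved both ways. The growth regulator Hmga2 had the most counts of any gene outside these lists that fell (13779 and 8062, −1.12), and the chaperone Clu of any that rose (4726 and 12256, 1.03).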
